A study of Homo sapiens with 12 samples.

Results

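The transcripts described here are those of 10 genes of the activator protein 1 (AP-1) family of transcription factors, out of 38478 genes measured: FOS, FOSB, FOSL1, FOSL2, JUN, JUNB, JUND, ATF3, BATF and BATF3. They were taken by name from a list, whatever their levels, and all 10 were found. OPM-1, an established human multiple myeloma cell line, was grown for 48 h in 1 of 4 conditions, with 3 biological replicates each and 12 samples in all, and polyadenylated RNA was sequenced. The conditions were the solvent DMSO alone, lenalidomide (LEN) at 0.1 μM, AI-10-104 at 1 μM, and both compounds at these doses (LEN+AI-10-104). Lenalidomide is an immunomodulatory drug that directs the cereblon ubiquitin ligase to the lymphoid factors IKZF1 and IKZF3, and AI-10-104 is a small-molecule inhibitor of RUNX transcription factors. The design asks how each compound and their combination alter gene expression. Every sample is of a single cell line at a single dose and time, and in bulk RNA fewer cells with a transcript and less of it per cell cannot be told apart.

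AP-1 proteins carry a basic region that contacts DNA and a leucine zipper that pairs 2 subunits. Jun proteins pair with each other or with Fos proteins, whereas Fos proteins need a Jun partner. FOS, JUN and their relatives are textbook immediate early genes, whose transcripts rise within minutes of a growth signal passed on by MAP kinases and then decay. BATF and BATF3 lack a transactivation domain, pair with Jun proteins and, in lymphocytes, bind composite sites together with IRF4 or IRF8. In myeloma, IRF4 is a factor on which the cells depend.

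Values are RPKM, reads scaled by the length of the gene and by the total reads on genes in the sample. RPKM can be set side by side between genes because it is a level per length. The samples held 16352548 to 31386210 reads on genes, with the lowest median in LEN+AI-10-104. All 10 plasma cell markers examined were tested, at means over the 12 samples of 22.9 to 3285 RPKM. None of the 21 B cell, T cell, myeloid and stromal markers reached a mean of 0.5 RPKM, and 17 of them, among them MS4A1, CD3D and CSF1R, had at most 3 reads in every sample. One sample stood apart in the genes described here. In AI-10-104 replicate 2, the 7 members tested lay a median of 0.35 above the other replicates of that condition on the log2 scale, against a median of -0.01 over all genes tested. This sample was singled out by the members' own values. Over all genes tested, the SD of its log2 difference from the other replicates was 0.27, within the range of 0.23 to 0.29 over the 12 samples. Even so, the calls over all genes, defined below, depended on this sample. In AI-10-104 against DMSO, 77 genes were called higher and 122 lower with all 12 samples, and 144 and 299 without it. Without AI-10-104 replicate 1 these counts were 48 and 71, and without replicate 3 they were 46 and 83. Results of the 10 members that use AI-10-104 samples are given with and without this sample where it alters a call. Because the sample was chosen by the members' values, the fits without it are a description and no separate support. Results of the other genes named below are given with all 12 samples only, and whether they depend on this sample was not examined.

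The promoters of 8 of the 10 genes were found in the RefSeq table of build GRCh38.p14. FOSL1 and BATF3 were not among them. The 250 bases before the start are printed for JUN and FOS, the members called in a comparison, for JUND, the most abundant member, and for BATF, which holds the RUNX core. Capitals mark every match, on either strand, to 5 motifs that do not overlap here: the AP-1 sites TGACTCA and TGACGTCA, the ATF-type variant TGACATCA known from the JUN promoter, the RUNX core TGTGGT and the TATA box TATAAA.
JUN, chr1:58784048-58784297, minus strand: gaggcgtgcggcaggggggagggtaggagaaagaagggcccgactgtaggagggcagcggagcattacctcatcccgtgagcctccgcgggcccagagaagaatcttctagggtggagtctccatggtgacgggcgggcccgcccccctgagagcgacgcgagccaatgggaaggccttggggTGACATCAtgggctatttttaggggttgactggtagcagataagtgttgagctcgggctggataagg
FOS, chr14:75278578-75278827, plus strand: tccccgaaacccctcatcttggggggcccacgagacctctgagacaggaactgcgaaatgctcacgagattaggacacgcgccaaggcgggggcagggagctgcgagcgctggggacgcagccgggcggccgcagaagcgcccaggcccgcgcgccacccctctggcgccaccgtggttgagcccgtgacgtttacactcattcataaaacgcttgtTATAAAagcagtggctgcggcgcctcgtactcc
JUND, chr19:18281623-18281872, minus strand: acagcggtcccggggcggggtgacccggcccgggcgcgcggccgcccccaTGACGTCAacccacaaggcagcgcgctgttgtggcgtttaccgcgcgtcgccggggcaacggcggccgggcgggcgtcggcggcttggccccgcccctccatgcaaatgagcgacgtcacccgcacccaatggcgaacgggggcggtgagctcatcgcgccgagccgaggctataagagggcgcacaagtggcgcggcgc
BATF, chr14:75522219-75522468, plus strand: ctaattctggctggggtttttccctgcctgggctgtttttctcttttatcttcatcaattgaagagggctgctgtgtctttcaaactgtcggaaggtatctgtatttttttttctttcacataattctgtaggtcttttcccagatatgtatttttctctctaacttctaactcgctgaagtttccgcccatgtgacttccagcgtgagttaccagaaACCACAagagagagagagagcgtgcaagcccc

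The match in JUN is TGACATCA, which begins 67 bases before the start and is present in 2.37% of the 35116 promoters of the table. Promoter 1 of ATF3 also holds TGACATCA, beginning 123 bases before the start. JUND holds TGACGTCA, beginning 200 bases before the start and shared by 1.65% of promoters. In FOS the only match is the TATA box, 33 bases before the start, which is present in 10.7% of promoters and also in those of FOSB and JUNB. Promoter 2 of ATF3 also holds TATAAA, beginning 230 bases before the start. BATF holds ACCACA, the reverse complement of the RUNX core, beginning 32 bases before the start, and 11% of promoters hold the core on either strand. TGACTCA, present in 4.2% of promoters, was in none of the 9 promoters listed for the 8 genes. These are matches of letters and not measured binding.

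The Jun genes made up most of the AP-1 transcripts. JUN, JUNB and JUND together held between 89.9% and 91.4% of the summed RPKM of the 10 genes in the 4 conditions. JUND, which encodes the Jun protein usually present in resting cells, was the most abundant, at 23.9 to 36.6 RPKM over the 12 samples, and more abundant in DMSO than 79.8% of the genes tested. JUNB ranged from 10.5 to 15.1 RPKM and JUN from 7.68 to 12.3 RPKM, so the ranges of JUNB and JUN overlapped. ATF3, a stress-induced factor, followed at 1.54 to 2.40 RPKM. BATF lay between 0.964 and 1.70 RPKM and FOSL2, a Fos-related gene, between 0.845 and 1.25 RPKM, and these neighbours overlapped with each other and BATF with ATF3.

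The remaining genes were near the limit of what this depth resolves. BATF3 had 12 to 42 reads per sample, FOS 4 to 53, FOSB 7 to 13 and FOSL1 3 to 15. FOSL1 was at the floor of 3 reads in 3 of the 12 samples. The 4 Fos genes together held only 2.43% to 3.05% of the members' summed RPKM, mostly from FOSL2. In the plot of all members on a log axis, the Jun genes stand apart from the other 7.

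**Figure D1:**
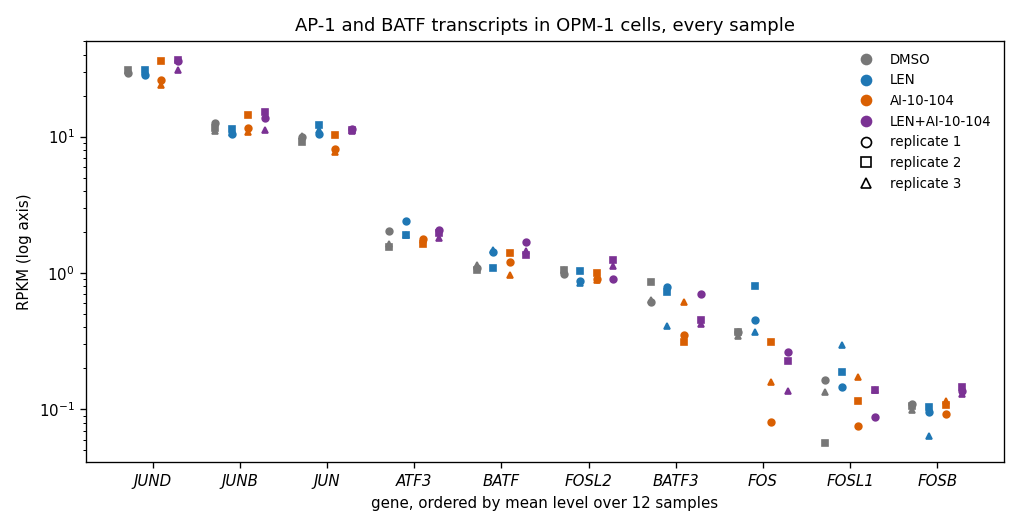
RPKM (log axis) of the 10 genes in each of the 12 samples, ordered by mean level, with colors for the 4 conditions and a symbol for each replicate. JUND, JUNB and JUN lie above 7 RPKM in every sample and the other 7 genes below 3 RPKM.

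Of the 10 genes, 7 had a mean of at least 0.5 RPKM and were tested with limma among 11241 genes. A gene was called when its adjusted p was at most 0.05 and its log2 fold change at least 0.32 in size, on the log2(RPKM + 0.1) scale, which understates changes of low genes. FOS was tested with the 12816 genes whose mean reached 10 reads, and FOSB and FOSL1 among the 24115 genes with any read. The 3 comparisons with DMSO share the DMSO samples, and likewise each treated condition enters 3 of the 6 comparisons.

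JUN was the only one of the 7 genes called in any comparison, and it was lower with AI-10-104 alone than with either treatment that contained LEN. JUN encodes c-Jun, the founding subunit of AP-1. It was measured from 591 to 1241 reads per sample. In DMSO, JUN was at 9.96, 9.19 and 10.2 RPKM in replicates 1, 2 and 3. In LEN it was at 10.4, 12.3 and 11.1 RPKM, and in LEN+AI-10-104 at 11.4, 11.1 and 10.9 RPKM. In AI-10-104 alone it was at 8.07, 10.3 and 7.68 RPKM. All LEN and all LEN+AI-10-104 samples lay above all DMSO and all AI-10-104 samples, whereas AI-10-104 overlapped with DMSO through its replicate 2.

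JUN was lower in AI-10-104 (8.67 ± 1.39 RPKM, SD, n = 3) than in LEN (11.3 ± 0.912 RPKM, n = 3) by limma, with a log2 fold change of -0.38 (SE 0.09, adjusted p = 0.0207). It was the single call among 7 members, where 2.73% of the genes tested were called lower. JUN was higher in LEN+AI-10-104 (11.1 ± 0.22 RPKM, n = 3) than in AI-10-104, with a log2 fold change of 0.37 (SE 0.09, adjusted p = 0.0248), again the single call among 7 members, against 3.16% of genes called higher. The 2 comparisons share the AI-10-104 samples. Without AI-10-104 replicate 2 they were -0.51 (adjusted p = 0.000658) and 0.49 (adjusted p = 0.000994). Both calls were lost without AI-10-104 replicate 1 (adjusted p = 0.0834 and 0.101) or replicate 3 (adjusted p = 0.0826 and 0.0973), the first also without LEN replicate 2 (adjusted p = 0.0781), and the second also without LEN+AI-10-104 replicate 1 (adjusted p = 0.0785) or 2 (adjusted p = 0.0621). The direction was the same in every case.

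Against DMSO, JUN did not pass the test. The log2 fold change was 0.20 with LEN (SE 0.09, adjusted p = 0.469), -0.18 with AI-10-104 (95% interval -0.38 to 0.02, adjusted p = 0.284) and 0.19 with both (-0.02 to 0.39, adjusted p = 0.252). Without AI-10-104 replicate 2, the value for AI-10-104 was -0.31 (adjusted p = 0.0141), which passes the adjusted p but not the fold change threshold. Between LEN+AI-10-104 and LEN it was -0.02, with an interval of -0.22 to 0.19. JUN lies at chr1:58776845-58784048 on the minus strand (ENSG00000177606), with no other gene of GENCODE 44 overlapping it.

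JUND and JUNB varied between the AI-10-104 replicates as JUN did. JUND was at 29.4, 30.6 and 30.5 RPKM in DMSO and at 28.1, 30.8 and 29.9 RPKM in LEN. In AI-10-104 it was at 26.0, 36.0 and 23.9 RPKM, and in LEN+AI-10-104 at 35.7, 36.6 and 30.7 RPKM. The LEN+AI-10-104 samples all lay above the DMSO samples, though replicate 3 only by a small margin, and overlapped with AI-10-104 through replicate 2 of the latter. The replicate coefficient of variation of JUND was 22.5% in AI-10-104 and 2.08% in DMSO, while counting error alone gives 2.63% and 2.47%.

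In limma, JUND did not pass in any comparison with all 12 samples. Its log2 fold change between LEN+AI-10-104 and AI-10-104 was 0.28 (SE 0.12, adjusted p = 0.129). Without AI-10-104 replicate 2 it was 0.46 (adjusted p = 0.00197), and 661 of 11241 genes were then called higher in place of 355. JUNB, whose product is a weaker activator than c-Jun and can restrain it, had means of 11.7 ± 0.834 RPKM under DMSO and 10.8 ± 0.438 RPKM under LEN (SD, n = 3 each). The means were 12.3 ± 1.95 RPKM under AI-10-104 and 13.4 ± 1.97 RPKM under LEN+AI-10-104. Its lowest LEN+AI-10-104 sample (11.2 RPKM) lay below its highest LEN sample (11.3 RPKM), and the log2 fold change between these conditions was 0.30 (SE 0.12, adjusted p = 0.174). JUNB lies at chr19:12791486-12793315 on the plus strand and overlaps HOOK2 on the other strand, and whether the counting used strand is not given in the sources used here.

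**Figure D2:**
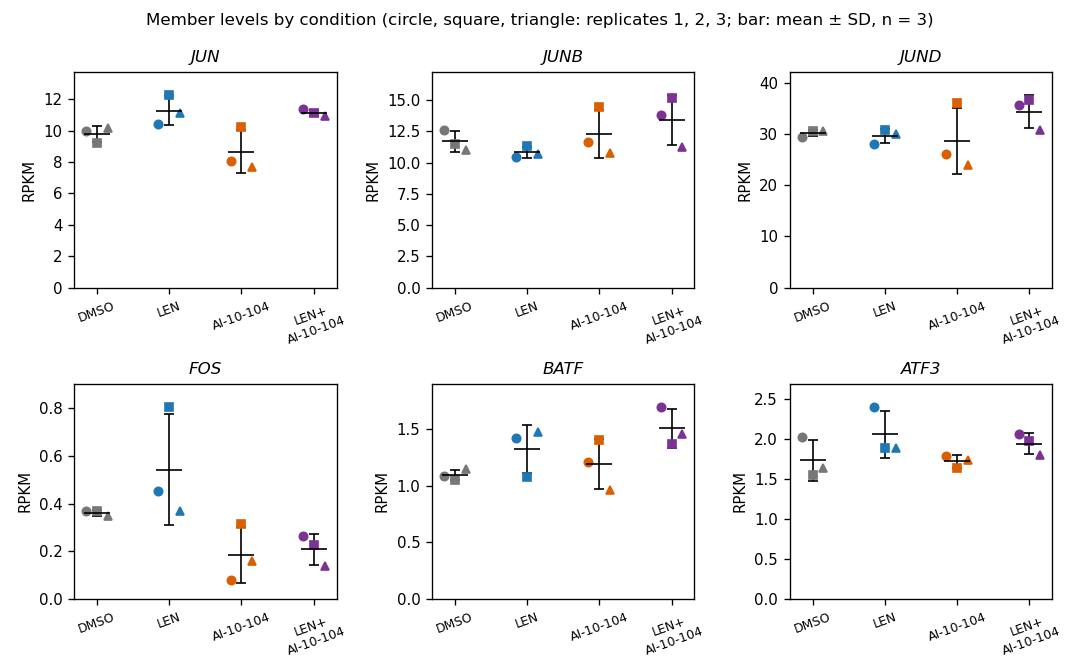
RPKM of JUN, JUNB, JUND, FOS, BATF and ATF3 in each sample of the 4 conditions, on axes that start at 0, with black bars for the mean and SD of 3 replicates. The square of AI-10-104 (replicate 2) is the highest of its condition for JUN, JUNB, JUND, FOS and BATF, and not for ATF3.

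FOS, the textbook immediate early gene and partner of JUN, was lower in AI-10-104 than in LEN, on few reads. In DMSO it was at 0.369, 0.368 and 0.348 RPKM (25, 24 and 16 reads). In LEN it was at 0.453, 0.806 and 0.370 RPKM (19, 53 and 23 reads). In AI-10-104 it was at 0.0814, 0.314 and 0.160 RPKM (4, 20 and 8 reads), and in LEN+AI-10-104 at 0.263, 0.227 and 0.136 RPKM (11, 8 and 6 reads). All 6 samples with AI-10-104 lay below all 6 samples without it, and the 3 LEN samples lay above the 3 DMSO samples, the lowest of them only just.

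The log2 fold change of FOS in AI-10-104 against LEN was -1.20 (SE 0.29, adjusted p = 0.0178 by limma among genes with at least 10 reads), where 3.02% of genes were called lower. The call was lost without LEN replicate 2 (adjusted p = 0.0695), AI-10-104 replicate 1 (adjusted p = 0.0758) or AI-10-104 replicate 3 (adjusted p = 0.0573), when only the compared conditions were fitted (adjusted p = 0.0645), and when all genes with a read were tested (adjusted p = 0.071). The other comparisons did not pass: -1.02 in LEN+AI-10-104 against LEN (adjusted p = 0.0648), -0.78 in AI-10-104 against DMSO (adjusted p = 0.146), -0.60 in LEN+AI-10-104 against DMSO (adjusted p = 0.228) and 0.42 in LEN against DMSO (adjusted p = 0.705). Without AI-10-104 replicate 2, FOS passed in AI-10-104 against DMSO (-1.09, adjusted p = 0.0211) and in LEN+AI-10-104 against LEN (-1.02, adjusted p = 0.027). By the two-sided exact permutation test, p was 0.1 in the 5 comparisons other than that between LEN+AI-10-104 and AI-10-104, which is the smallest value that 3 against 3 samples allow. FOS lies at chr14:75278826-75282230 on the plus strand (ENSG00000170345) and overlaps no other gene of GENCODE 44.

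The other Fos genes did not pass any test. FOSL2 had means of 1.03 ± 0.038 RPKM under DMSO and 0.916 ± 0.103 RPKM under LEN (SD, n = 3 each). With AI-10-104 its mean was 0.931 ± 0.063 RPKM and with both compounds 1.09 ± 0.17 RPKM, and samples overlapped in all 6 comparisons. It overlaps FOSL2-AS1 on the other strand and ENSG00000270640 on its own strand, so its reads may be shared with these genes. FOSB, an immediate early gene close to FOS in function, was at 0.130 to 0.146 RPKM in LEN+AI-10-104 (9, 10 and 10 reads). In the 9 other samples it was at 0.0644 to 0.114 RPKM (7 to 13 reads). The LEN+AI-10-104 samples thus lay above all others in RPKM but not in reads. The log2 fold change against LEN was 0.34 (SE 0.11, adjusted p = 0.20 by limma). This SE may be too small, since the median replicate coefficient of variation of FOSB was 8.15%, under its counting error of 31.9%. FOSB overlaps ERCC1 on the other strand. FOSL1, which encodes FRA1, was at 0.0566 to 0.297 RPKM, with the highest mean in LEN (0.21 ± 0.0779 RPKM, n = 3), and the log2 fold change of 0.51 against DMSO did not pass (SE 0.25, adjusted p = 0.729).

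BATF was highest in the combination, without passing the test. In DMSO it was at 1.08, 1.05 and 1.15 RPKM (32, 30 and 23 reads). In LEN it was at 1.42, 1.08 and 1.48 RPKM and in AI-10-104 at 1.21, 1.40 and 0.964 RPKM. In LEN+AI-10-104 it was at 1.70, 1.36 and 1.46 RPKM, from 31, 21 and 28 reads. These samples lay above all DMSO samples and overlapped with both single treatments. The log2 fold change against DMSO was 0.42 (SE 0.14, 95% interval 0.11 to 0.74, adjusted p = 0.0983), and without 1 sample at a time it was 0.34 to 0.49. With limma voom on the reads it was 0.47 (adjusted p = 0.21). BATF had 85 reads in DMSO and 80 in LEN+AI-10-104, so the difference appears only after scaling for depth. The replicate coefficient of variation was 4.33% and 11.4%, under the counting error of 18.8% and 19.4%. The interval may therefore be too narrow.

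BATF3, the relative of BATF needed for a class of dendritic cells, was at 0.609, 0.856 and 0.636 RPKM in DMSO and at 0.792, 0.728 and 0.407 RPKM in LEN. In AI-10-104 it was at 0.352, 0.313 and 0.612 RPKM, and in LEN+AI-10-104 at 0.698, 0.452 and 0.422 RPKM. AI-10-104 overlapped with DMSO through its replicate 3, and the log2 fold change of -0.64 did not pass (SE 0.27, adjusted p = 0.201). ATF3 was at 1.63 to 1.79 RPKM in AI-10-104 and at 1.88 to 2.40 RPKM in LEN, with no overlap. Its log2 fold change between them was -0.24 (SE 0.11, adjusted p = 0.189).

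Counted over the 7 tested members, calls were few. In LEN against DMSO 0 of 7 were called, where 0.649% of all genes tested were, in AI-10-104 against DMSO 0 of 7 against 1.77%, in LEN+AI-10-104 against DMSO 0 of 7 against 2.94%, and in LEN+AI-10-104 against LEN 0 of 7 against 1.68%. At an unadjusted p of at most 0.05, the members in these 4 comparisons by limma numbered 0, 1, 1 and 1 of 7, against 10.7%, 21.9%, 23.7% and 20.6% of all genes tested. In the 2 comparisons in which JUN was called, they numbered 3 of 7 for LEN+AI-10-104 against AI-10-104, against 33.2% of all genes tested. For AI-10-104 against LEN it was 1 of 7, against 29.3%. The 7 log2 fold changes of LEN+AI-10-104 against AI-10-104 were all positive, from 0.12 to 0.37 with a median of 0.26. The median over all genes was 0.02, and the share of all genes with a positive value was not computed. These 7 values come from the same samples, in which the members tended to move together, and are not independent. Against DMSO, the members' median was -0.03 with LEN, -0.10 with AI-10-104 and 0.18 with both. The samples of 3 members in LEN+AI-10-104 lay above those of DMSO without overlap (JUN, JUND and BATF), as those of 18.1% of all genes did. No member passed the test of the interaction, the difference between the effect of LEN with and without AI-10-104, and 0 of 11241 genes passed it by limma, of which 1621 had an unadjusted p of at most 0.05. This count rests on AI-10-104 replicate 2: without it 415 genes passed with a higher and 125 with a lower value, and JUND was the 1 member among them (0.48, adjusted p = 0.0242).

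**Figure D3:**
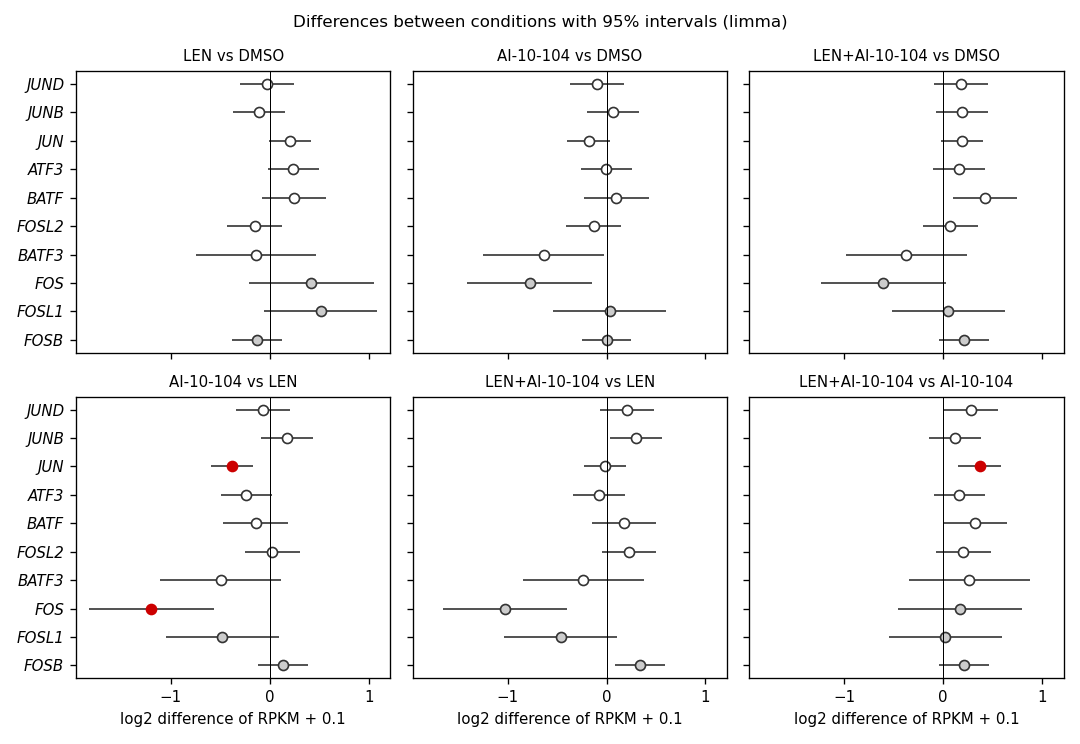
Log2 difference of RPKM + 0.1 between conditions for the 10 genes, in 6 comparisons, with 95% intervals from limma. Red points are called, white points are not called, and gray points are genes tested under a lower expression filter and not called. JUN is red in 2 panels and FOS, also under the lower filter, in 1, and in the last panel all points lie to the right of 0.

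Among 18 other bZIP factors that pair or compete with AP-1, 14 were tested and MAF was the only one called. For this list and those below, the share of all genes called in at least 1 comparison was not computed. In single comparisons between 2 conditions, 0.649% to 3.97% of all genes tested were called. MAF, the large Maf factor known as a myeloma oncogene, was at 5.42, 5.98 and 6.27 RPKM in DMSO and at 7.80, 7.95 and 8.25 RPKM in LEN. In AI-10-104 it was at 3.94, 4.85 and 4.54 RPKM, and in LEN+AI-10-104 at 6.01, 6.03 and 5.90 RPKM. LEN lay above and AI-10-104 below all DMSO samples, and the combination within the DMSO range. By limma, MAF rose with LEN against DMSO (log2 fold change 0.44, SE 0.07, adjusted p = 0.0128) and fell with AI-10-104 (-0.40, SE 0.07, adjusted p = 0.0101). NFE2L1, the most abundant of the factors not called, had condition means of 45.7 to 47.1 RPKM. BATF2 had at most 3 reads in every sample.

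The partners of BATF were measured at very different levels. IRF4, the master regulator of plasma cells, was at 177 to 227 RPKM over the 12 samples and was not called. IRF8 was at 1.04, 1.35 and 0.97 RPKM in DMSO and at 1.72, 1.81 and 1.60 RPKM in LEN+AI-10-104, without overlap. It rose by 0.58 on the log2 scale (SE 0.15, adjusted p = 0.0303 by limma). In AI-10-104 alone IRF8 was at 1.29, 1.87 and 1.85 RPKM, and its log2 fold change of 0.53 against DMSO did not pass (adjusted p = 0.0621). Between LEN+AI-10-104 and AI-10-104 the log2 fold change was 0.05 (SE 0.15), so the level in the combination was near that with AI-10-104 alone. Of 14 textbook BATF-IRF targets, 3 were tested and 7 had at most 3 reads in every sample, among them CTLA4 and IL21. PRDM1 (32.2 to 33.8 RPKM as condition means) and IL10 (0.781 to 1.17 RPKM) were not called. WNT10A, a secreted Wnt ligand, was higher in AI-10-104 than in LEN (0.48, SE 0.10, adjusted p = 0.00783).

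Of 25 immediate early genes outside AP-1, 13 were tested and 3 were called in at least 1 comparison. In AI-10-104 against DMSO, 1 of 13 was called higher and 1 lower, against 0.685% and 1.09% of all genes tested. In AI-10-104 against LEN it was also 1 and 1, against 1.24% and 2.73%. GADD45B, a stress sensor that acts on MAP kinase signaling, was at 19.5, 18.1 and 16.2 RPKM in DMSO, at 21.0, 22.9 and 21.6 RPKM in LEN, at 13.4, 14.9 and 12.8 RPKM in AI-10-104 and at 17.6, 16.6 and 16.7 RPKM in LEN+AI-10-104. It fell with AI-10-104 against DMSO (-0.38, SE 0.07, adjusted p = 0.0104), and was lower in AI-10-104 than in LEN (-0.67, SE 0.07, adjusted p = 0.000119). SGK1, a serum-induced kinase, moved the other way, from 8.67 ± 0.0558 RPKM in DMSO to 11.6 ± 0.193 in AI-10-104 (SD, n = 3 each, log2 fold change 0.42, adjusted p = 0.000367). MYC was higher in AI-10-104 (230.0 ± 10.3 RPKM) than in LEN (179 ± 7.95 RPKM, n = 3 each, log2 fold change 0.36, adjusted p = 0.00173). BTG2 and MCL1, the most abundant genes without a call, had means of 62.1 to 76.0 RPKM and of 130.0 to 139 RPKM.

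MAP kinases phosphorylate Jun and Fos proteins, and the dual-specificity phosphatases (DUSPs) that switch them off are themselves transcribed in response to MAP kinase signaling. Of 20 tested genes for the kinases and the serum response factors, ELK3 and MAPK11 were called, both higher in LEN+AI-10-104 than in DMSO (0.33, SE 0.06, adjusted p = 0.00643, and 0.66, SE 0.14, adjusted p = 0.0145). These are 2 of 20, where 2.3% of all genes tested were called higher. MAP2K2 and MAP2K3, the most abundant, were not called. Of 12 tested phosphatases and sprouty-type brakes, 3 were called lower in AI-10-104 than in LEN and 0 higher, against 2.73% and 1.24% of all genes tested. These were DUSP4 (16.9 ± 1.21 against 21.7 ± 0.763 RPKM), DUSP5 (13.9 ± 0.429 against 22.3 ± 1.19 RPKM) and DUSP6 (21.9 ± 0.393 against 28.9 ± 0.77 RPKM, SD, n = 3 each). Their log2 fold changes were -0.36, -0.67 and -0.40, with adjusted p of 0.00163, 2.27e-05 and 1.77e-05 by limma. Against DMSO, 1 of 12 (DUSP5) was called lower with AI-10-104 and 0 higher, against 1.09% and 0.685% of all genes tested. With LEN, 0 of 12 were called, against 0.649% of all genes tested. DUSP4 and DUSP6 passed the adjusted p but not the fold change threshold with AI-10-104 against DMSO (-0.26, adjusted p = 0.0215, and -0.21, adjusted p = 0.00274). DUSP6 did so with LEN as well (0.18, adjusted p = 0.0177). DUSP10 rose with LEN+AI-10-104 against DMSO (0.45, SE 0.09, adjusted p = 0.0135), and DUSP2 and DUSP7 were not called.

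Of 20 textbook AP-1 target genes, 7 were tested, and 11 had at most 3 reads in every sample, among them MMP1, MMP3, CCND1, CXCL8 and IL6. In AI-10-104 against LEN, 3 of the 7 were called lower and 0 higher, again against 2.73% and 1.24% of all genes tested. LGALS1, which encodes galectin-1, was at 16.8, 19.9 and 21.8 RPKM in AI-10-104 and at 36.4, 34.4 and 29.7 RPKM in LEN (-0.78, SE 0.10, adjusted p = 0.000437). TIMP1, an inhibitor of matrix metalloproteinases, was at 0.403, 0.432 and 0.419 RPKM against 1.39, 1.02 and 0.691 RPKM (-1.08, SE 0.24, adjusted p = 0.0121), and HMOX1, heme oxygenase 1, had a log2 fold change of -0.45 (SE 0.06, adjusted p = 0.000553). LGALS1 and TIMP1 were also higher in LEN+AI-10-104 than in AI-10-104 (0.77 and 0.89, adjusted p = 0.00112 and 0.0286). Against DMSO the calls were fewer. With AI-10-104, 1 of 7 targets (LGALS1) was called lower and 0 higher, against 1.09% and 0.685% of all genes tested. With LEN, 0 of 7 were called, against 0.649% of all genes tested. HMOX1 was lower with AI-10-104 than in DMSO by 0.25 (log2 fold change -0.25, adjusted p = 0.0353), which passes the adjusted p but not the fold change threshold. The abundant targets VIM and EZR were not called. VIM went the other way, higher in AI-10-104 than in LEN by 0.17 (SE 0.03, adjusted p = 0.00457 by limma). It passed the adjusted p but not the fold change threshold. The lists were described by their counts and not tested as sets.

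**Figure D4:**
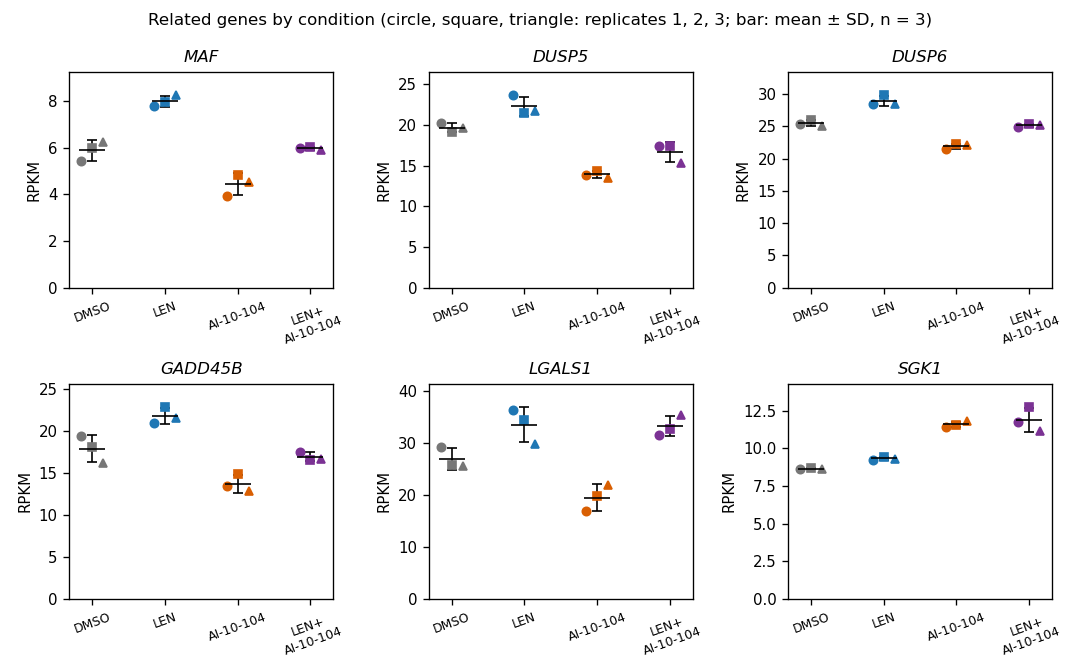
RPKM of 6 related genes in each sample of the 4 conditions, on axes that start at 0, with black bars for the mean and SD of 3 replicates. MAF, DUSP5, DUSP6, GADD45B and LGALS1 are lowest in AI-10-104 and highest in LEN as means, and SGK1 is highest in the 2 conditions with AI-10-104.

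The positions of the other genes are those of GENCODE 44 on GRCh38. JUND is at chr19:18279694-18281622 on the minus strand and FOSB at chr19:45467995-45475179 on the plus strand, on the chromosome of JUNB. BATF is at chr14:75522455-75546993 on the plus strand, downstream of FOS. ATF3 is at chr1:212565334-212620777 on the plus strand and BATF3 nearby at chr1:212686417-212699840 on the minus strand. FOSL2 is at chr2:28392448-28417317 on the plus strand and FOSL1 at chr11:65892049-65900573 on the minus strand. JUNB and JUND have a single exon block each. The lengths behind the RPKM values are the deposited ones, for BATF3 1623 bases where the exons of GENCODE 44 cover 2569 bases.

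Across the 12 samples, the genes whose log2 levels followed JUN most closely were BMI1 (Pearson r = 0.96), FRMD8 (0.95) and ARPC1B (0.94), out of 11240 genes compared. For BATF they were ARPC5L (0.89), FAM102B (0.88) and BRI3 (0.87). The 12 points of each correlation share 4 conditions and the same libraries, and the values are given as a description. BMI1, a Polycomb protein, had means of 10.4 RPKM under DMSO, 11.7 RPKM under LEN and 8.07 RPKM under AI-10-104, against 11.8 RPKM with both compounds.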

How the data were processed

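Per the labels and the study's methods, the authors aligned poly(A) RNA-seq reads of 12 samples to GRCh38 with STAR. They deposited RPKM values for 38478 genes beside the gene lengths, of which 28 carry a date number as their name. Values times gene length were whole multiples of 1 step per sample for 100% of values (tolerance 0.05), which gave the reads printed here. The floor of 3 reads covers counting error only, and the limma intervals cover the spread between replicates.

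log2(RPKM + 0.1) was fitted with limma 3.58.1 (R 4.3.3) over all samples, with 1 mean per condition, a variance trend and Benjamini-Hochberg adjustment over all genes tested, and was tested on simulated data. Exact permutation tests (scipy 1.17.1) were two-sided. The plan named FPKM, and the values were used as RPKM. Alternatives were other pseudocounts, filters, scalings, fits and left-out samples. Gene positions are from GENCODE 44 (GRCh38). Besides the 10 members, the text names list genes called in any comparison, the 2 most abundant uncalled genes of each list, and the 3 genes that correlate best with the 2 members of largest F. CTLA4, IL21 and other list genes named only for their few reads fall outside this rule, and a gene that the rule names is not reported here. Members, lists and the threshold of 0.32 were chosen with earlier results of these data known. The authors' GO and other data were not used here.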

Additional observations from a re-analysis of the deposited data

How the results depend on the processing

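The 2 counts of members called that were above 0 each rested on JUN alone. For AI-10-104 against LEN, the count was 0 in place of 1 when any gene with a read was tested and when only the compared conditions were fitted, and 2 with a mean of at least 10 reads, which adds FOS. For LEN+AI-10-104 against AI-10-104 it was 0 with any read and 0 with the compared conditions only. Leaving out 1 sample at a time gave 0 to 1 for the first, 0 to 2 for the second and 0 to 1 for the interaction. The adjusted p of JUN in the 2 comparisons was 0.0563 and 0.0655 with any read and 0.0804 and 0.0684 with the compared conditions only. The count was the same under pseudocounts of 1 and 0.01, a mean of 1 RPKM (5 members tested), median-ratio and quantile scaling, limma voom on the reads, no variance trend and no fold change threshold. Of 70 pairs of member and comparison, 27 had an unadjusted p of at most 0.1, and 0 of these changed sign under any alternative. Of the other 43, 19 did.

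Samples with the same replicate number deviated together with a mean correlation of 0.05 (18 pairs, -0.03 to 0.16). Those with different numbers had a mean of -0.03 (36 pairs). The correlation was weak but higher for equal numbers, and whether the numbers pair the samples was not tested. A block for the replicate number gave 408 genes called higher in LEN+AI-10-104 than in AI-10-104, in place of 355. With the replicate number as a block, the counts of members called stayed at 1 and 1, and FOS in LEN+AI-10-104 against LEN passed (-1.02, adjusted p = 0.0311). FOS also passed there with quantile normalization (adjusted p = 0.045) and voom (adjusted p = 0.0348), and without AI-10-104 replicate 1 (adjusted p = 0.0416). The planned edgeR and DESeq2 fits were not run, since the deposited values are normalized. The wider filters for FOS, FOSB and FOSL1 in the other alternatives were chosen after seeing the data. Depth limits FOS, FOSB, FOSL1, BATF and BATF3, which had at most 53 reads in any sample, and a difference that did not pass for them is not shown to be absent. Among these genes, the coefficient of variation between replicates, as a median over the 4 conditions, exceeded counting error for FOS (36.9% against 26.1%) and BATF3 (30.5% against 21.8%). For FOS it was under counting error in DMSO and in LEN+AI-10-104. JUN, JUNB, JUND, ATF3 and FOSL2, which had more reads, also exceeded counting error by this median.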

Other observations

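The ratio of JUNB to JUN did not overlap between DMSO and either single treatment, whereas the level of JUN overlapped between DMSO and AI-10-104. In RPKM the ratio, chosen from 5 ratios after their values were seen and therefore given without a test, was 1.40 to 1.44 in AI-10-104, 0.923 to 1.00 in LEN and 1.08 to 1.27 in DMSO, with no overlap among the 3 conditions. In LEN+AI-10-104 it ranged from 1.03 to 1.36. JUN made up 17.9% to 19.7% of the summed Jun RPKM in DMSO, 16.9% to 18.2% in AI-10-104, which overlaps with DMSO, 21.3% to 22.6% in LEN and 17.7% to 20.7% in LEN+AI-10-104. A ratio within a sample shows unequal change and not which of the 2 genes moved. AI-10-104 replicate 2, which had high levels of all Jun genes, did not stand apart in the ratio of JUNB to JUN. The lack of overlap was not particular to this ratio. FOSL2 over FOS, on the few reads of FOS, was 2.66 to 3.01 in DMSO, 1.28 to 2.28 in LEN and 3.20 to 11.1 in AI-10-104. JUND over JUN was 2.51 to 2.69 in LEN, below the 2.96 to 3.33 of DMSO, and overlapped between DMSO and AI-10-104.

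Among the plasma cell markers, SLAMF7 and XBP1 were the 2 of 10 that were called in any comparison. In AI-10-104 against DMSO 1 of 10 was called higher, against 0.685% of all genes tested. In AI-10-104 against LEN 2 of 10 were, against 1.24%. SLAMF7, the target of elotuzumab, was at 31.1 ± 1.60 RPKM in AI-10-104 and at 19.3 ± 1.21 in DMSO (SD, n = 3 each), and the log2 fold change was 0.69 (adjusted p = 0.000113 by limma). XBP1, a factor of the secretory response, was at 632 ± 33.3 RPKM in AI-10-104 and 456 ± 10.5 in LEN (0.47, adjusted p = 2.56e-05). These are values of other genes in the same libraries, and their part in the results on JUN and FOS was not tested.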
